A study of Mus musculus with 2 samples.

Results

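The replication-dependent histone genes are the set described here. They were taken as every protein-coding gene on chromosomes 1 to 19 of GENCODE M21 whose symbol starts with Hist1h, Hist2h, Hist3h or Hist4h, which gave 67 of 20807 genes: 6 H1, 18 H2A, 18 H2B, 12 H3 and 13 H4 genes. The assay was DNase-seq on whole frontal cortex, taken from 36-day-old females of the F1 hybrid strain B6CASTF1/J. DNase I cuts exposed DNA in nuclei, so that dense cutting marks accessible chromatin (a peak) and a short protected stretch inside it is called as a footprint, taken as the mark of a bound protein. The labels give 1 group with 2 biological replicates, no treatment and no other condition, so each value is given for both libraries and no test between conditions exists. Both replicates carry the same donor label, and the labels do not say if more than 1 animal was used, so the spread between the libraries may be technical. A promoter peak was a peak of the shorter deposited list overlapping the 500 bp to either side of an annotated transcription start site (TSS) by at least 1 bp, and the peak signal is the authors' cleavage density normalized for read depth.

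Replication-dependent histone genes supply the bulk of histone protein during S phase, when new DNA has to be packaged. H3 and H4 form the core of the nucleosome, H2A and H2B join it as dimers, and H1 binds the linker DNA between nucleosomes. The genes lie in clusters and most lack introns, and their mRNAs end in a stem-loop bound by SLBP instead of a poly(A) tail. NPAT gathers at the clusters and, with HINFP at H4 promoters and OCT1 at H2B promoters, is known to drive their transcription in cycling cells. Most cells of the adult cortex do not divide, and neurons draw largely on replacement histones such as those from H3f3a and H3f3b.

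Of the 67 genes, 62 had a single exon and 63 a single annotated TSS. They fell into runs with gaps of at most 500 kb: 10 genes on chromosome 3, Hist4h4 alone on chromosome 6, Hist3h2ba and Hist3h2a on chromosome 11, and 23 and 31 genes in runs on chromosome 13, here called the first and the second chromosome 13 cluster. Positions are on GRCm38, the build mm10 of the files. All letters shown are those of this reference genome and not of the alleles of the hybrid. In 13 places a pair of histone genes was transcribed away from a shared interval of 176 to 660 bp. The sequences between the TSSs of 3 pairs are shown first, chosen as those with the most bases under footprints of both libraries. Capitals mark those bases.
Hist1h2bl/Hist1h2ai chr13:21716143-21716422 plus strand: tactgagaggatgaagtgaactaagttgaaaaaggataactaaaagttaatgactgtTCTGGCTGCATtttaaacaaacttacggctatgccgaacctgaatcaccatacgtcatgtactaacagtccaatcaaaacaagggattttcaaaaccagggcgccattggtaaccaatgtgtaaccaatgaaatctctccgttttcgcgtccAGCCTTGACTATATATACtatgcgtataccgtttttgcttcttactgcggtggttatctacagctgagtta
Hist1h2ag/Hist1h2bj chr13:22042944-22043214 plus strand: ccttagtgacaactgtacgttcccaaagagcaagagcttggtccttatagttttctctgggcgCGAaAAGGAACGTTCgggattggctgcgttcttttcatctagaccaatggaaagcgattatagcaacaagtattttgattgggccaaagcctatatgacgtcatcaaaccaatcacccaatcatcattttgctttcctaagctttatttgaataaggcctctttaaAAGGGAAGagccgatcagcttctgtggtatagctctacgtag
Hist1h2ac/Hist1h2bc chr13:23683948-23684199 plus strand: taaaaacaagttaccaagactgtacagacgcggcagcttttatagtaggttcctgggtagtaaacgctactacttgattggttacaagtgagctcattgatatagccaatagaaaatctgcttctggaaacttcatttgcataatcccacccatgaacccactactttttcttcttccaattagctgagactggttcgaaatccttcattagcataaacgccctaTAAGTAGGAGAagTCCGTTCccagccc
Each interval held several copies of CCAAT or its reverse complement ATTGG, the box bound by NF-Y: 4 between Hist1h2bl and Hist1h2ai, 5 between Hist1h2ag and Hist1h2bj, and 3 between Hist1h2ac and Hist1h2bc. The last of these also held the octamer ATTTGCAT, the element that OCT1 binds.

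All 13 H4 promoters held GTCCG, the core of the site bound by the H4 regulator HINFP, on the strand of the gene at 10 to 79 bp before the TSS. The longer match GGTCCG was present in 12 of them, all but Hist1h4a. The largest distance, 79 bp at Hist1h4k, is from a TSS annotated at the start codon. The 24 bp around this core are given for 8 H4 genes, with the bases under footprints of both libraries in capitals, to show promoters with a strong peak (Hist1h4c, Hist1h4i, Hist1h4d, Hist4h4, Hist2h4), the exception (Hist1h4a) and genes with a peak in replicate 2 only (Hist1h4j, Hist1h4m).
Hist1h4c chr13:23698490-23698513 minus strand: ttTCAACCAGGTCCGCAGAAGGCC
Hist1h4i chr13:22041394-22041417 minus strand: ttTCACTCCGGTCCGCAAGTTCCc
Hist1h4d chr13:23581512-23581535 plus strand: tttcaaacaggtccgCATTGGTAT
Hist4h4 chr6:136804449-136804472 minus strand: ttTCAATCAGGTCCGCTCCCAGGA
Hist2h4 chr3:96263365-96263388 minus strand: Tttcaatctggtccgatcctctca
Hist1h4a chr13:23761260-23761283 minus strand: TGACGTCACCGTCCGGCGGGCGGG
Hist1h4j chr13:21735007-21735030 plus strand: tctcatttcggtccgcccgctaca
Hist1h4m chr13:21811690-21811713 plus strand: tttcactccggtccgcaagttccc
The core was touched by a footprint in 8 H4 promoters in replicate 1 and in 10 in replicate 2. The same 8 were touched in both libraries, and 3 in neither (Hist2h4, Hist1h4m and Hist1h4n). Among those touched in both, footprints of both libraries covered only the final G of the core at Hist1h4f and the final CCG at Hist1h4b. Hist1h4m and Hist1h4i share the same 24 bases, and Hist1h4i had a footprint there in both libraries while Hist1h4m had none. Of the sequence upstream of the TSS, 98.1% was unique in the genome at Hist1h4i and 0% at Hist1h4m, by the measure described below. Hist1h4n, with the same 24 bases and no footprint at the core, also had 0%. Hist2h4, likewise without a footprint at the core, had 100%. The part of uniqueness in these absences was not tested.

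A promoter peak in both libraries was found at 44 of the 67 histone genes (65.7%), against 52% of all protein-coding genes. Replicate 1 had one at 45 genes (all genes, 52.2%) and replicate 2 at 56 (all genes, 61.2%). A further 12 genes had a peak in replicate 2 only (all genes, 9.24%), Hist1h2bh alone in replicate 1 only (all genes, 0.173%), and 10 in neither (all genes, 38.6%). Histone genes nearly all have a single annotated TSS, and of the 4406 protein-coding genes with 1 TSS only 22.7% had a peak in both and 30.3% in replicate 2. Replicate 2 held more peaks in all, 66512 against 29700, and in the longer deposited list (56015 and 117579 peaks) the count in both libraries was 55 of 67 (all genes, 59.2%). That list held a replicate 1 peak for 10 of the 12 genes with a peak in replicate 2 only, the exceptions being Hist1h4j and Hist1h4n.

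The highest peak at a histone promoter had a median signal of 2.16 in replicate 1 (45 genes) and 2.99 in replicate 2 (56 genes), below the medians of all protein-coding promoters with a peak (2.30 and 3.58). Across the 44 genes with both values, the log2 of replicate 2 over replicate 1 had a median of 0.61 and a range from -0.11 at Hist1h3c to 0.97 at Hist3h2ba, and over all protein-coding genes the median was 0.79. Replicate 2 was the higher library at 43 of the 44 genes, against 99.1% of all genes with a peak in both, so this offset was shared with the rest of the genome. Levels are therefore compared within a library.

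**Figure D1:**
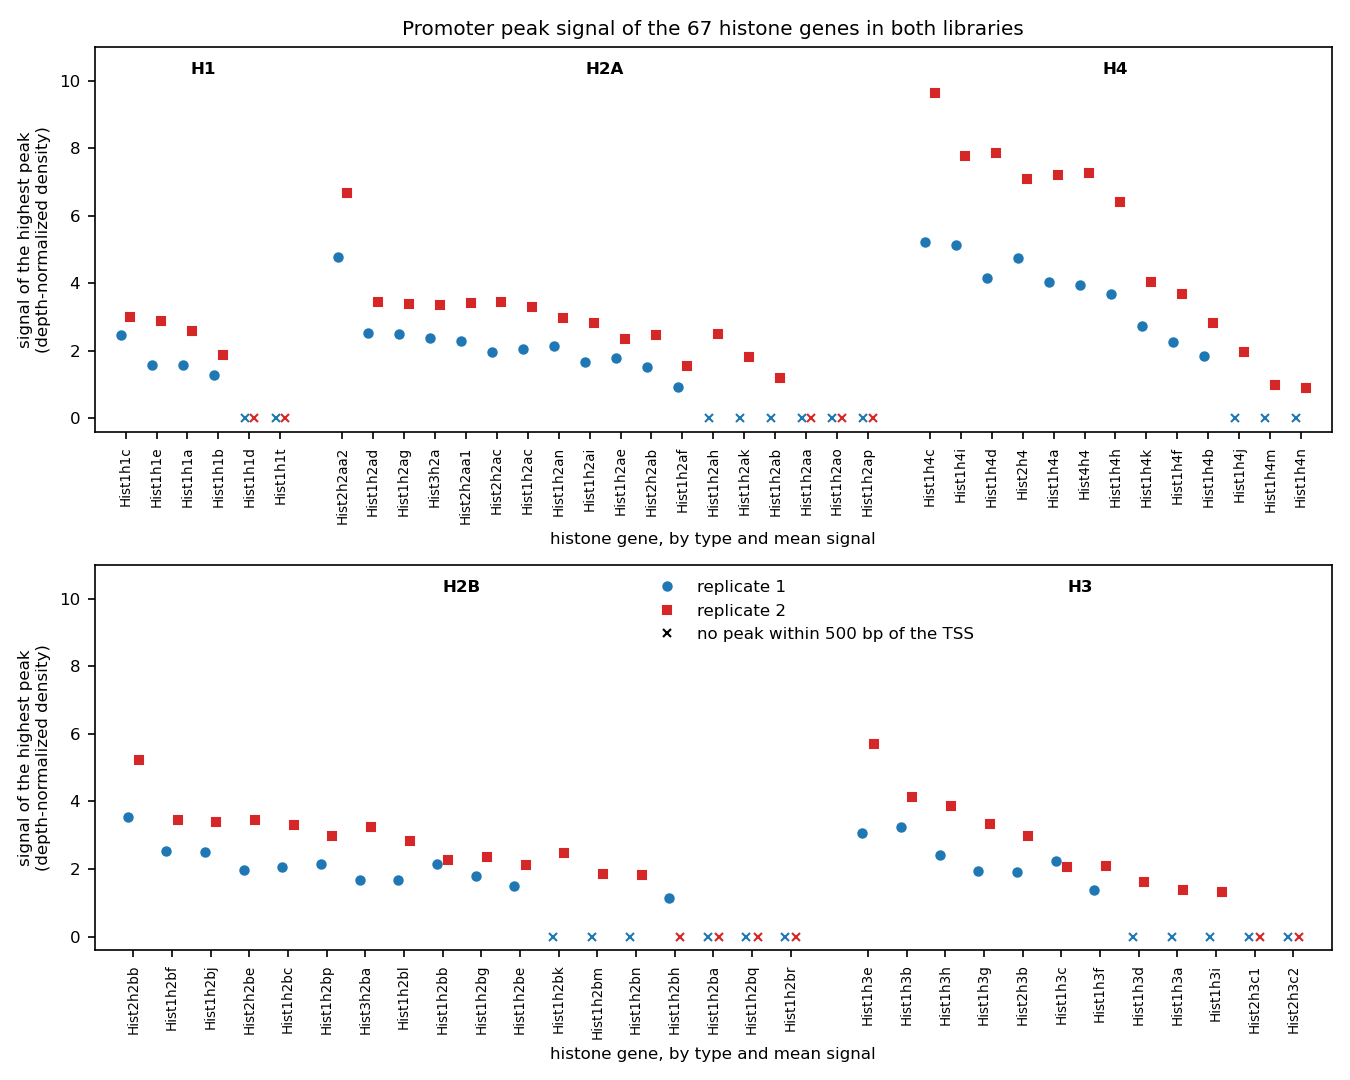
Signal of the highest peak within 500 bp of the TSS (vertical axis, depth-normalized density) for each of the 67 histone genes, grouped by type and ordered by mean signal; circles are replicate 1, squares replicate 2, and crosses at 0 mark libraries with no peak. The H4 genes hold the top of the range, up to 5.22 and 9.65 at Hist1h4c.

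The H4 genes had the highest promoter signals of the 5 types. All 13 had a peak in replicate 2 and 10 also in replicate 1, and the median signal was 4.01 in replicate 1 (range 1.84 to 5.22) and 6.40 in replicate 2 (range 0.913 to 9.65). Ranked among all protein-coding promoters with a peak, the median H4 gene stood at the 90.9th percentile in replicate 1 and the 86.5th in replicate 2. The medians of the other types lay between the 25.5th and the 47.5th percentile. The H4 range still overlapped that of the other types in both libraries.

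Hist1h4c had the highest signal of all histone genes, 5.22 in replicate 1 and 9.65 in replicate 2. By the mean of both libraries it was followed by Hist1h4i with 5.15 and 7.76 and by Hist1h4d with 4.17 and 7.87, and in replicate 2 alone Hist1h4d stood above Hist1h4i. These stood in different places, Hist1h4i in the first chromosome 13 cluster and the others in the second. The solitary Hist4h4 had 3.96 and 7.25, and Hist2h4 on chromosome 3 had 4.74 and 7.09, so strong H4 promoters were found on 3 chromosomes. Of the 7 histone genes among the 10% highest promoter peaks of replicate 1 (all genes with a peak, 9.95%), 6 were H4 genes and the other was Hist2h2aa2. All 6 in replicate 2 (all genes with a peak, 9.99%) were H4 genes. At the low end, Hist1h4m and Hist1h4n had 0.990 and 0.913 in replicate 2 and no peak in replicate 1, and Hist1h4j had 1.95 in replicate 2 only.

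The promoter of Hist1h4c, shown for its signal after the values were seen, runs from 250 bp before to 50 bp after the TSS, with bases under footprints of both libraries in capitals.
Hist1h4c chr13:23698405-23698704 minus strand: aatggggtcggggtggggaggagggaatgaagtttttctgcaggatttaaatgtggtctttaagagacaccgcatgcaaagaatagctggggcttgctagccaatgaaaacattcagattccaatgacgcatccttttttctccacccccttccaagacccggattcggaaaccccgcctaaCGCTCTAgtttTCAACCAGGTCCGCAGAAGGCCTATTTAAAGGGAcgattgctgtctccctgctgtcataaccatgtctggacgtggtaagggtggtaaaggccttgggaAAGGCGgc
The longest protected stretch covers the GGTCCG core. A shorter protected run lies just upstream of it and another at the downstream end. CCAAT or ATTGG occurs 2 times upstream, outside the capitals.

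Among the 12 H3 genes, which supply the partner of H4, 7 had a peak in both libraries, 3 in replicate 2 only and 2 in neither. By the mean of both libraries Hist1h3e led the type with 3.06 and 5.70, followed by Hist1h3b with 3.25 and 4.13, the higher of them in replicate 1, and Hist1h3h with 2.42 and 3.87. Hist1h3c was the single histone gene with a lower signal in replicate 2, 2.06 against 2.23. Genes with a peak in replicate 2 only were Hist1h3d (1.60), Hist1h3a (1.38) and Hist1h3i (1.32), below all 7 H3 genes with a peak in both in that library.

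The H2A and H2B genes gave nearly the same counts. A peak in both libraries stood at 12 of 18 H2A and 11 of 18 H2B genes, and each type had 3 genes with none. Median signals were 2.10 and 2.98 for H2A and 2.01 and 2.90 for H2B, and 12 of the 13 divergent pairs join a gene of each type across a shared interval. Hist2h2aa2 stood apart from the other H2A genes with 4.78 and 6.67. Next by the mean of both libraries were the pair members Hist1h2ad with 2.53 and 3.46 and Hist1h2ag with 2.50 and 3.40, and in replicate 2 Hist2h2ac (3.44) and Hist2h2aa1 (3.42) stood above Hist1h2ag. Hist2h2aa1, the neighbour of Hist2h2aa2 on the opposite strand, had 2.30 and 3.42. Only 27.2% and 33.2% of the sequence around Hist2h2aa2 and Hist2h2aa1 was unique in the genome (share of 31-base words within 500 bp of the TSS that occur once), and the part of this in their values was not tested. Hist2h2bb led the H2B genes with 3.55 and 5.24, followed, by the mean of both libraries, by Hist1h2bf with 2.53 and 3.46, from the same peaks as its partner Hist1h2ad, and Hist1h2bj with 2.50 and 3.40, from the same peaks as Hist1h2ag. In replicate 2 alone Hist2h2be (3.44) was above Hist1h2bj.

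Outside pairs, Hist1h2bm (1.84) and Hist1h2ab (1.19) had a peak in replicate 2 only, as did the pairs Hist1h2ah/Hist1h2bk (2.49) and Hist1h2ak/Hist1h2bn (1.82). Hist1h2bh was the single gene with a peak in replicate 1 only (1.14). In replicate 2 its window held 322 bases at an FDR of 0.05 or less with a lowest value of 0.00176, and the longer list gave it a replicate 2 peak with a signal of 1.68.

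Of the 6 H1 genes, which encode linker histones, Hist1h1c (2.47 and 3.0), Hist1h1e (1.57 and 2.88), Hist1h1a (1.59 and 2.57) and Hist1h1b (1.30 and 1.87) had a peak in both libraries. The type had the lowest median signal in replicate 1, 1.58. Hist1h1t, the testis-specific linker histone, and Hist1h1d had no peak. For Hist1h1d the annotated GENCODE start lies 1770 bp upstream of the RefSeq start. At its start codon (chr13:23555090) there was a peak of 1.40 in replicate 1 and of 2.25 in replicate 2, values in the range of the other H1 genes, so this gene is counted as without a peak by the rule on the annotated TSS alone. The annotated starts of the H2B gene Hist1h2be also lie far from its start codon, by at least 35122 bp. Its highest peaks there (1.48 and 2.11) lie within the gene record of Hist1h1e, and its motifs were counted at that place. Around its start codon the highest peaks were 1.15 and 1.77. Counted around the start codon, 45 histone genes had a peak in both libraries and 9 in neither.

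The other 9 genes without a peak were of different kinds. The testis-linked genes Hist1h1t, Hist1h2ba and Hist1h2aa lie in sequence that is 100%, 82.1% and 94.7% unique by the same measure, and no position within 500 bp of their TSSs was listed at an FDR of 0.05 or less in either library. Footprints were absent there too. Hist1h2bq, Hist1h2ao, Hist1h2ap and Hist1h2br, in contrast, had no unique sequence at all, and Hist2h3c1 and Hist2h3c2 had 3.19%. Of these 6, Hist2h3c2 alone had any listed position, 33 bases in replicate 1 with a lowest FDR of 0.036 and 223 bases in replicate 2 with a lowest FDR of 0.00238. The intervals between the TSSs of the 3 pairs without a peak follow, to show the copies beside the testis-linked pair, which is given without its last 7 bases.
Hist1h2bq/Hist1h2ao chr13:21810197-21810465 plus strand: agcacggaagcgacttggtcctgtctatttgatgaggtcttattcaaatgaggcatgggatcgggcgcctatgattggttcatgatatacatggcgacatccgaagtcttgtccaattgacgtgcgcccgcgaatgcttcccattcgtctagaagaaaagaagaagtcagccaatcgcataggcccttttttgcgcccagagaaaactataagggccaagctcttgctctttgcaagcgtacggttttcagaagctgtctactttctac
Hist1h2ap/Hist1h2br chr13:21833507-21833743 plus strand: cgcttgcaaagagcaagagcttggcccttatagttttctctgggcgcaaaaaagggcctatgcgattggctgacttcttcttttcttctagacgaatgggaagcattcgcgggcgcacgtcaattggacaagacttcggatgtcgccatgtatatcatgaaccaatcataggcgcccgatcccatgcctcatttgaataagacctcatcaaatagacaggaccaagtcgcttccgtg
Hist1h2ba/Hist1h2aa chr13:23934156-23934455 plus strand: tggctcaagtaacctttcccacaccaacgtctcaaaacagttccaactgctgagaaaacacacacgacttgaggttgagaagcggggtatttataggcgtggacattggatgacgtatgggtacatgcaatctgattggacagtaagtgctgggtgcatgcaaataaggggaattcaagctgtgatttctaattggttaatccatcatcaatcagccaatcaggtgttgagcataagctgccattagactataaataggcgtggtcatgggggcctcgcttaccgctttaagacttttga
The 237 bp between Hist1h2ap and Hist1h2br occur whole, on the opposite strand, within the 269 bp between Hist1h2bq and Hist1h2ao. No base is in capitals, since no footprint was called in any of the 3 intervals. CCAAT or its complement is nevertheless present 3, 3 and 4 times, within the range of the pairs shown earlier.

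Uniqueness was computed in this way for every protein-coding gene. Reads from a word that occurs more than once cannot be placed at a single site, and the treatment of such reads was not given in the sources used here. Over the histone genes the median was 63.2%, and it was 100% over all protein-coding genes. The loss lay mostly in the transcribed side, with medians of 89.4% upstream and 35.9% downstream of the TSS. By type the medians were 98.8% for H1, 77.3% for H4, 63.1% for H3, 50.5% for H2B and 49.3% for H2A.

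Among all protein-coding genes the share with a peak in both libraries was 2.27% where under 5% of the words were unique, 10.3% from 5% to 50%, 30.7% from 50% to 90% and 58.3% at 90% or more. Histone genes in the same classes counted 0 of 8, 11 of 13, 26 of 36 and 7 of 10. The 8 histone genes under 5% were the 6 without a peak just named and Hist1h4m and Hist1h4n, which had weak peaks in replicate 2. In the classes from 5% to 90% the histone counts stood above the shares of all genes, a description over few genes with no test. Without the 8 genes under 5%, 44 of 59 had a peak in both libraries and 10 of the 11 remaining H4 genes did.

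**Figure D2:**
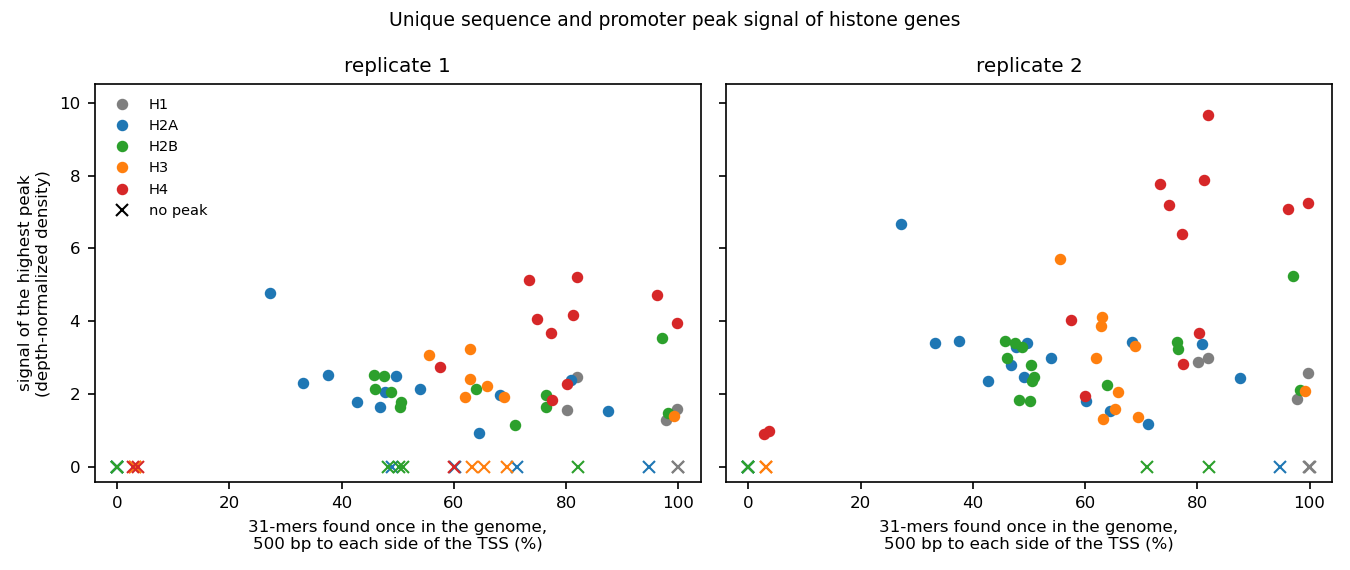
Share of 31-base words found once in the genome within 500 bp of the TSS (horizontal axis, %) against the signal of the highest promoter peak (vertical axis, depth-normalized density) in each library; points are histone genes coloured by type and crosses at 0 have no peak. Below 5% unique sequence the only peaks are those of Hist1h4m and Hist1h4n in replicate 2, at 0.990 and 0.913.

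The clusters differed in how many genes had a peak. On chromosome 3 (chr3:96219865-96270132) 8 of 10 genes had a peak in both libraries, and the exceptions were Hist2h3c1 and Hist2h3c2, both with 3.19% unique sequence. Besides Hist2h4, Hist2h2aa2, Hist2h2aa1 and Hist2h2bb, the cluster held Hist2h3b (1.92 and 2.99), Hist2h2ab (1.53 and 2.46) and the pair Hist2h2ac/Hist2h2be (1.97 and 3.44). All 3 genes outside chromosomes 3 and 13 had a peak in both. On chromosome 11, Hist3h2ba had 1.66 and 3.25 and Hist3h2a 2.38 and 3.37, the latter from peaks that also lie at the TSS of the neighbouring gene Trim17.

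The first chromosome 13 cluster (chr13:21715763-22043676) had a peak in both libraries at 10 of 23 genes (43.5%), in replicate 2 only at 9 and in neither at 4. In the second (chr13:23531050-23934851) the counts were 23 of 31 (74.2%), 3 and 4, with Hist1h2bh in replicate 1 only. The gap lay in replicate 1, since replicate 2 had a peak at 19 of 23 genes (82.6%) and 26 of 31 (83.9%). In the longer list the first cluster rose to 17 of 23 (73.9%) in both libraries. Of its 23 genes, 6 had under 5% unique sequence, and without these its count was 10 of 17 (58.8%), while the second cluster had no such gene. The part of uniqueness in this gap was not tested.

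Within these runs the peaks sat largely at histone promoters in the second chromosome 13 cluster and less so in the first. The second held 37 peaks in replicate 1, of which 28 lay at histone genes and 9 elsewhere, and 44 in replicate 2, of which 31 and 12 did. In the first cluster 9 of 26 replicate 1 peaks and 20 of 49 replicate 2 peaks were at histone genes. Of the 6 other protein-coding genes in the second cluster only Hfe had a promoter peak, in replicate 2 alone (0.981), and Trim38 and the transporter genes Slc17a1, Slc17a2, Slc17a3 and Slc17a4 had none. The first contained Zfp184 (2.76 and 4.72), Pom121l2 (0.845 in replicate 2 only) and Prss16 (no peak).

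**Figure D3:**
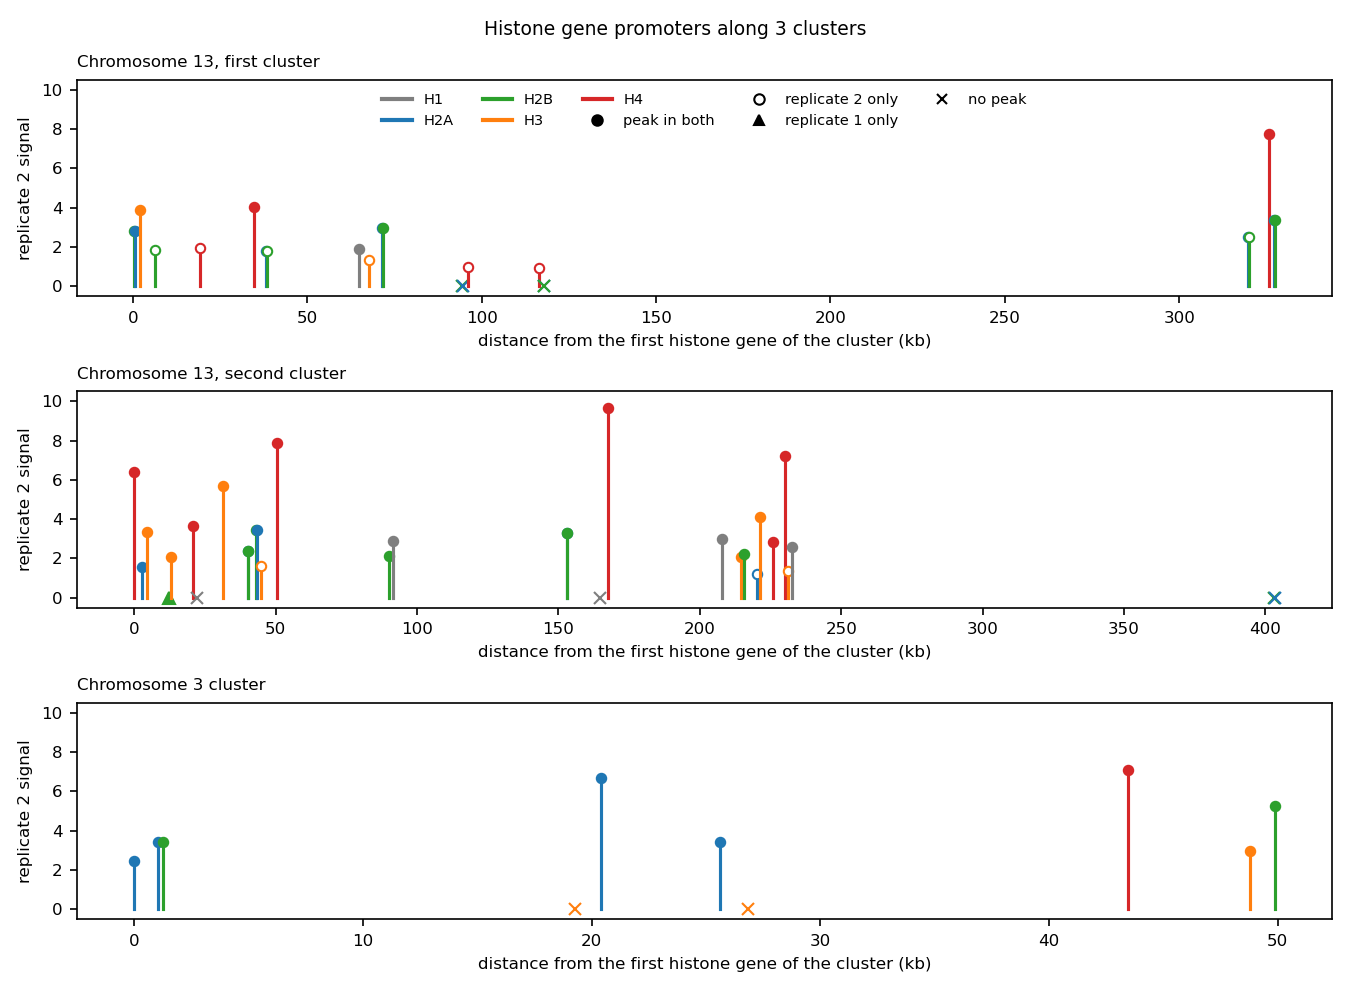
Signal of the highest promoter peak in replicate 2 (vertical axis, depth-normalized density) along the 3 largest clusters (horizontal axis, kb from the first histone gene); colours give the type, filled circles a peak in both libraries, open circles replicate 2 only, the triangle replicate 1 only and crosses no peak, and genes of a pair overlie each other. The tallest lines are H4 genes in each chromosome 13 cluster, with 7.76 at Hist1h4i and 9.65 at Hist1h4c, and also on chromosome 3, with 7.09 at Hist2h4.

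Divergent pairs, with TSSs at most 1000 bp apart, held 26 of the 67 genes. A peak in both libraries was found at 15 of these 26 (57.7%) and at 29 of the 41 single genes (70.7%). Over all protein-coding genes the order was the opposite, 89.9% of the 2350 genes with a divergent coding partner and 47.2% of the others. Of the 6 pair members without a peak, 4 were the copies with no unique sequence and 2 the testis-linked pair. Without genes under 5% unique sequence the counts were 15 of 22 (68.2%) in pairs and 29 of 37 (78.4%) outside. Among H2A and H2B genes, 9 of the 11 single ones (81.8%) had a peak in both.

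A peak touched the interval between the TSSs in both libraries in 7 pairs, in replicate 2 only in 2, in replicate 1 only in 1 and in neither in 3. The median interval was 268 bp. The highest peak of a pair was the same peak for both genes in 7 pairs in replicate 1 and in 9 in replicate 2, so that values of partners are mostly not independent. Peaks reached over both TSSs in 2 pairs in replicate 1 and in 4 in replicate 2.

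By the mean over libraries of the peak between the TSSs, the strongest pair was Hist1h2bf/Hist1h2ad, with 2.53 and 3.46 over a 185 bp interval that the peak covered whole in both libraries. Hist1h2ag/Hist1h2bj had 2.50 and 3.40 over 270 bp, and Hist2h2ac/Hist2h2be had 1.97 and 3.44 over 239 bp. Hist1h2ac/Hist1h2bc (2.05 and 3.29) and Hist1h2an/Hist1h2bp (2.16 and 2.98) followed. These 5 lay close together within each library, and none reached the 10% highest promoter peaks. The widest pair, Hist1h2bh/Hist1h3f with 660 bp, is the single pair without an H2A gene and had a peak in the interval in replicate 1 only (1.14). Hist1h3f itself had a peak in both libraries (1.39 and 2.09), centred 549 and 570 bp downstream of its TSS.

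Accessible positions extended differently around the annotated TSS by type. In 13 of the 67 genes, none of them H1, an annotated TSS coincides with the start codon. This can move promoter bases to the upstream side. In the table of cleavage rates, positions at an FDR of 0.001 or less covered on average 239 bp upstream and 127 bp downstream of H2A starts in replicate 1, and 217 and 172 bp for H2B. For H4 the order was turned, with 177 bp upstream and 226 bp downstream, and likewise for H1 with 84.7 and 250.5 bp. H3 genes had the least, 77.8 and 100.1 bp. Replicate 2 covered more at every type and kept the direction for each (329 and 211 bp for H2A, 321 and 258 bp for H2B, 256 and 310 bp for H4, 164 and 332 bp for H1, 161 and 215 bp for H3). The partner promoters of divergent H2A and H2B genes lie in the upstream window. All means include genes with no listed position, among them Hist1h1d with its distant annotated start. Median unique sequence downstream of the TSS was 97.5% for H1, 53.3% for H4, 32.2% for H2B, 29.9% for H2A and 24.2% for H3. Upstream it was 100% for H1, H3 and H4, 69.6% for H2A and 69.5% for H2B. The part of uniqueness in these extents was not tested.

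**Figure D4:**
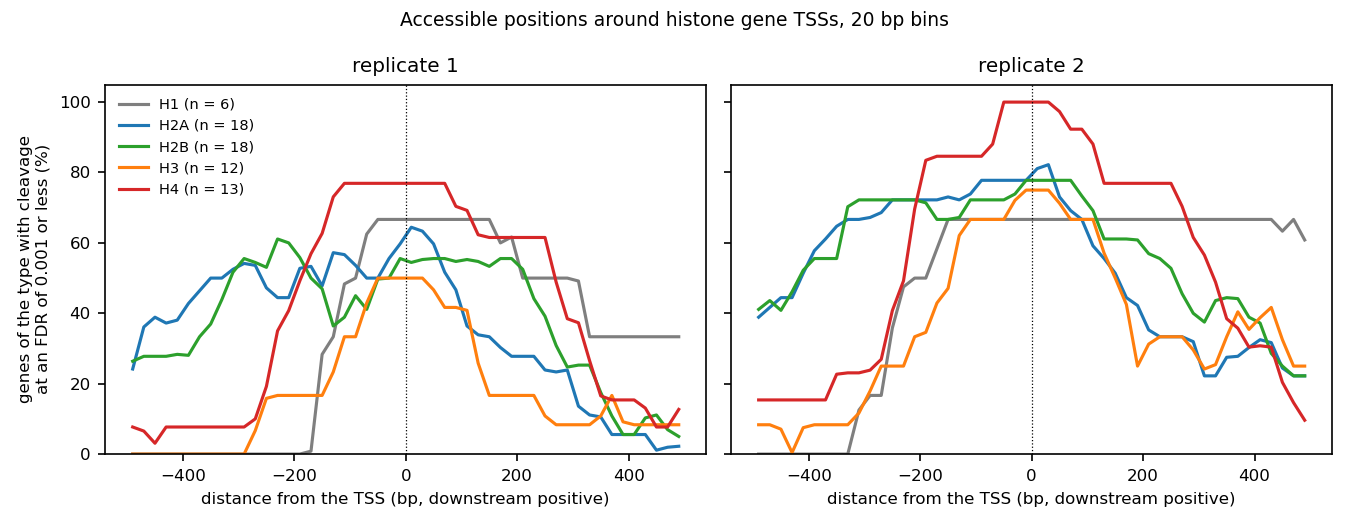
Share of the genes of each type (vertical axis, %) with cleavage at an FDR of 0.001 or less, in 20 bp bins by distance from the TSS (horizontal axis, bp, downstream positive), in each library; n in the legend is the number of genes. The H4 line reaches 100% near the TSS in replicate 2 and 76.9% in replicate 1, and the H2A and H2B lines stay raised upstream.

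Footprints were called within 500 bp of the TSS at 52 of the 67 genes in both libraries (all genes, 56.3%), at 53 in replicate 1 (all genes, 56.7%) and at 57 in replicate 2 (all genes, 63.6%). Summed over the windows there were 256 in replicate 1 and 347 in replicate 2, with footprints in the interval of a pair counted for both partners, and 143 of the 256 (55.9%) overlapped a footprint of replicate 2 by at least 1 bp. Genes with a peak had a median of 5 in replicate 1 and 6 in replicate 2, beside 5 and 7 for all protein-coding genes. No gene with a peak lacked a footprint in replicate 1 (all genes with a peak, 1.23%), and Hist1h3a alone did in replicate 2 (all genes with a peak, 0.958%). Hist1h4a had the most footprints shared between libraries, 8 of its 9 in replicate 1 overlapping the 13 of replicate 2. Hist1h4i had 6 in each library, and all 6 of replicate 1 overlapped. Those at the pair Hist1h2bl and Hist1h2ai numbered 7 each in replicate 1, of which 6 overlapped the 12 and 13 of replicate 2. Hist2h2aa2 had 5 and 7, with all 5 of replicate 1 overlapping, and Hist1h1e had 7 and 8, of which 4 did.

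Promoter sequence motifs followed the histone type. Exact matches on both strands were counted from 250 bp before to 50 bp after the TSS. CCAAT, the box of NF-Y, occurred at all 18 H2A, all 18 H2B, 11 of 12 H3 and 5 of 6 H1 genes but at 4 of 13 H4 genes, 83.6% in all against 35.6% of all protein-coding promoters. The H1 gene without it was Hist1h1d and the H3 gene Hist1h3f. Their annotated TSSs lie 1828 and 433 bp from their start codons, and motifs were counted at those TSSs. TATAAA, the TATA box, occurred at 55.2% of histone promoters and 13.4% of all. The octamer ATTTGCAT was found at 7 H2A and 8 H2B genes and at none of the other types (22.4% against 1.59%). TTTNGCGC, an E2F-type site, was likewise at 7 H2A and 7 H2B genes alone (20.9% against 1.49%). The windows of close divergent partners share bases, so that 1 match can count for both genes. The histone windows held 10 distinct octamer matches and 8 distinct TTTNGCGC matches. AAACACAA, known as an element of H1 promoters, stood at 4 of 6 H1 genes and at 1 H2A and 1 H2B gene (8.96% of histone promoters against 1.86%). The H1 genes without it were Hist1h1a and Hist1h1d, the latter again counted at its distant annotated TSS.

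GTCCG reached 13 of 13 H4 genes but also 10 H2B, 6 H2A and 2 H3 genes, 46.3% of histone promoters against 27.5% of all. GGGCGG, the GC box of Sp1-type factors, was at 46.3% of histone promoters and 41% of all. With 500 bp to each side of the TSS the shares were 83.6% and 56.0% for GGGCGG and 76.1% and 54.5% for GTCCG. Within the histone genes and the shorter window GGGCGG was at 10 of 13 H4 and 2 of 12 H3 genes. GTCCG and GGGCGG can share letters where they abut. A match describes the letters and not a bound site. CCAAT was at 37 of the 44 genes with a peak in both libraries and at 9 of the 10 without.

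Matches inside peaks lay under footprints to different degrees. Of the peak bases from 250 bp before to 50 bp after the histone TSSs, 18.0% were under a footprint in replicate 1 and 23.7% in replicate 2. GTCCG matches were touched by a footprint in 12 of 21 cases in replicate 1 (57.1%) and 14 of 23 in replicate 2 (60.9%), and TATAAA matches in 7 of 14 and 10 of 17. GGGCGG matches were touched in 10 of 23 (43.5%) and 13 of 23 (56.5%). For the few TTTNGCGC matches it was 2 of 4 and 3 of 4, and for AAACACAA 1 of 2 and 0 of 2. CCAAT matches were touched in 10 of 50 (20%) and 19 of 67 (28.4%). None of the 4 and 6 octamer matches in peaks was touched. A match several bases long can meet a footprint more easily than a single base does, so these shares are not directly comparable with the base share. Matches between partners of a pair were counted once.

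Base composition differed from other promoters too. Histone promoters had a median GC content of 45.7% against 55.7% for all protein-coding genes, and an observed to expected CpG ratio of 0.75 against 0.498. By type the GC medians ran from 41.8% for H3 to 51.2% for H1. The H1 median includes Hist1h1d (30.7%), counted at its distant annotated start.

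The 3' stem-loop that SLBP binds was looked for in the sequence, since it marks this gene class independently of the symbols. An exact match to the histone stem-loop consensus, on the strand of the gene, lay within 100 bp after the coding sequence in 62 of 67 genes, at a median of 34 bp (range 24 to 61 bp). For this search no share of all protein-coding genes was counted. The most frequent form, in 38 genes, is shown with the forms of 9 and 8 genes, in capitals throughout since the whole run is the match.
38 genes: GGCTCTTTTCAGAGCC
9 genes: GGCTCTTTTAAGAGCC
8 genes: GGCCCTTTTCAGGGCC
The 5 genes without a match were Hist2h2be, Hist1h2an, Hist1h2bp, Hist1h2bq and Hist1h2br. For Hist1h2bp, Hist1h2bq and Hist1h2br the annotated coding sequence spans 1546, 2069 and 2069 bp over more than 1 exon. The search began at the far end of that span, so a stem-loop closer to the TSS would have been missed. Near the annotated end of the gene the match was present in 38 histone genes and in 0.418% of all protein-coding genes.

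Genes that act on this class mostly had open promoters in the same tissue. In the list of 20 regulators of histone genes, 19 had a promoter peak in both libraries, the exception being the E2F family gene E2f2 with a peak in replicate 2 only (0.864). Npat had 3.88 and 8.93, Hinfp 3.53 and 6.62, and Slbp 3.02 and 6.42. Of 12 replication-independent histone genes 10 had a peak in both, with H1fx in replicate 2 only (1.88) and the oocyte linker histone gene H1foo in neither. Of 20 genes of S phase and mitosis, 18 had a peak in both, and Mki67 and Aurkb in replicate 2 only (1.46 each). No measure of transcription was used here.

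The tissue label was checked against marker genes. Among the neuronal markers, Syn1, Snap25, Camk2a and Tbr1 had a promoter peak in both libraries and Cux2 in replicate 2 only, while Slc17a7 and Gad1 had none. The astrocyte genes Gfap and Slc1a3 had a peak in both, and Aqp4 had none. Oligodendrocyte genes Mbp and Olig2 and the microglial gene Aif1 had peaks in replicate 2 only. None of the endothelial, liver or muscle markers had a peak in both, and Alb had a weak one in replicate 2 (0.379). Tissue was used whole, so the signal at a histone promoter is a sum over these cell types and the share of cells with that promoter open cannot be told from it.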

How the data were processed

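DNase-seq data of frontal cortex in 2 libraries of 1 group were used as deposited. The build is mm10, per the labels; the aligner, the callers and their cut-offs were not given in the sources used here. Each library has 2 peak lists deposited by the authors with a read-depth normalized signal per peak, a footprint list whose score is constant in the deposited file and gives no rank, and a table of cleavage rates with an FDR (a p-value adjusted by the authors) listed up to 0.05. The list with fewer peaks (29700 and 66512) was the main list and the longer one (56015 and 117579) an alternative. Distinct signals were whole multiples of 1 step, which would correspond to 84.9 M and 103 M tags if the step is 1 tag. Precision is limited by the 2 libraries.

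Genes, starts and strands came from GENCODE M21 and sequence from GRCm38. Overlaps of at least 1 bp were counted with Python 3.11.15, pandas 2.3.3 and numpy 2.4.6. The overlap, uniqueness and FDR code was tested on simulated data. Pairs were head-to-head genes with starts at most 1000 bp apart. Motifs were exact matches. Intervals, tests and resampling were not used, since 1 group allows no contrast. The histone genes, the lists of other genes and the alternatives were chosen with earlier results of these data known. Named genes were, per type, the 3 with the highest mean signal and up to 3 without a peak, the testis-linked genes, all genes outside the chromosome 13 clusters, those with a peak in 1 library, the 5 strongest pairs and those without a peak, and the 6 with the most footprints in both libraries. Others, such as Hist1h3c, were named after their values were seen. Alternatives were windows of 250 and 1000 bp, the longer list, the 50% highest peaks, peak midpoints, the gene record's start, pair limits of 500 and 2000 bp, wider motif windows and leaving out each replicate. RefSeq starts, start codons and removal of genes under 5% unique sequence were added after the data were seen.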

Additional observations from a re-analysis of the deposited data

How the results depend on the processing

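Over 22 results, which were counts, shares and 1 median log2 signal ratio, 159 of 163 alternatives (124 planned, 39 added after the data were seen) stayed within 1.5 times the value reported. This limit is wide. The 44 genes with a peak in both libraries, against 55 in the longer list or 56 in replicate 2 alone, stayed within it. A share of 66.7% or more cannot rise beyond it, and the shares of chromosomes 6 and 11 were 100% throughout. The share of the first chromosome 13 cluster with a peak in both libraries, 43.5%, became 73.9% with the longer list. Leaving out a replicate gave it a range from 43.5% to 82.6%, the higher value being that of replicate 2 alone. With 500 bp to each side of the TSS, GGGCGG was found at 83.6% and GTCCG at 76.1% of histone promoters, against 46.3% each, and at 56.0% and 54.5% of all promoters; the wider window holds more sequence.

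No paired analysis was possible because there is 1 group and no test. The 2 libraries carry 1 donor label, differ 2.24-fold in the number of peaks, and give no error beyond their 2 values. Near-identical copies limit what can be placed: 21 of the 67 genes have under 50% unique sequence. Genes with weak peaks, such as Hist1h4m and Hist1h4n, have none in the shorter list of replicate 1, which does not show that their promoters are closed there.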
